A study of Mus musculus with 19 samples.

Results

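The genes described here are 47 mouse cell cycle and DNA replication genes, followed by the accessibility of the chromatin around them as neural stem cells became astrocytes. Their peaks were chosen by position and not by any measured value. A peak was assigned to a gene when its centre lay in the gene body or within 5 kb of either end in the GRCm38 RefSeq table. A peak centred within 1 kb of an end was called a gene-end peak. Of the 90154 peaks in the table, 132 belonged to these genes. They were 54 gene-end peaks, found at 45 of the 47 genes, and 78 other peaks. All 132 passed the filter on low values, as did 88919 peaks in all, of which 13346 were gene-end peaks and 44734 were other peaks near genes. Ccnd2 and Cdk6 had no gene-end peak.

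Chromatin was profiled by ATAC-seq, in which a transposase inserts sequencing adapters into accessible DNA, so that more reads in a peak mean more accessible DNA there. It does not measure transcripts or dividing cells. The cells were primary cultures from the ventricular zone of embryonic (E14) wild-type C57BL/6J mouse brains, 1 brain to a culture, grown as free-floating neurospheres (NSPs) with EGF. They were turned into astrocytes on a coated surface by replacing that medium with one that contained serum. All groups came from wild-type cells. The 6 groups were NSPs (n = 3), astrocytes after 24 h without TNF (n = 3) or with TNF (n = 3), after 72 h without TNF (n = 3) or with TNF (n = 3), and after 1 week without TNF (n = 4). TNF, an inflammatory cytokine, was given at 50 ng/ml. Each library was made from many cells in bulk, so a smaller share of dividing cells and less accessible DNA in every cell cannot be told apart. The labels do not say whether replicates were separate cultures, and p-values then measure only the spread between these libraries.

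Cells divide by passing through ordered phases. D-type cyclins with Cdk4 and Cdk6 release E2F factors from the retinoblastoma proteins. E2F then switches on the genes for DNA replication, such as the Mcm helicase subunits, and the MuvB core with B-Myb and FoxM1 later switches on the mitotic genes. In resting cells the same core, within the DREAM complex, represses cell cycle genes. It binds a short element called CHR, often beside a CCAAT box, and CDK inhibitors such as p21 (Cdkn1a) and p27 (Cdkn1b) hold the cycle back. Neural stem cells in EGF divide continuously, whereas astrocytes in a healthy brain seldom do.

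Reads in peaks ranged from 9640256 in 1 week replicate 3 to 39349111 in NSP replicate 2, and the NSP libraries were the deepest. NSP replicate 1 stood apart. Its rank correlation with the other NSP libraries over peaks was 0.913 to 0.923, against 0.982 between those libraries. A tag stands in the names of the 10 libraries from 72 h and 1 week and is missing from the names of the 9 others. At 212 peaks every tagged library had 3 or fewer reads and every untagged one 20 or more, and 0 of these peaks belonged to the 47 genes. Any effect of what the tag marks cannot be told apart from time when 72 h or 1 week is compared with NSPs or with 24 h. The comparisons of 24 h with NSPs, of TNF with no TNF, and of 1 week with 72 h lie within 1 kind of name. Gene-end peaks of 5 of 7 NSP markers summed to 4528 to 5148 normalised reads in NSPs and to 1862 to 2826 in all other libraries. Those of 7 of 8 astrocyte markers summed to 2424 to 2867 in NSPs and were lower with TNF, at 1894 to 2039 against 2338 to 2723 at 24 h and at 1917 to 1994 against 2354 to 2504 at 72 h. At 1 week they summed to 2500 to 2705. Markers of other cells were mostly without a gene-end peak, with 1 of 5 microglial (32.3 to 86.2 normalised reads), 2 of 5 oligodendrocyte (252 to 373) and 1 of 4 endothelial or mesenchymal genes (89.4 to 229) having any. The 4 of 6 neuronal markers that had one summed to 1907 to 2364 in NSPs and 1351 to 2124 elsewhere. Their part in the results below was not tested.

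Promoters of 38 of the 47 genes were matched in a RefSeq promoter table (GRCm38, 250 bases before the transcription start to 50 after it). Ccnd1, Ccnd2, Ccne2, Ccna2, Mcm4, Foxm1, Aurkb, Kif20a and Cdkn1c had no entry. The 200 bases before the start are shown for 7 genes. They were chosen to show 2 kinds of promoter found in the set, with E2F matches or with CHR and CCAAT matches. Mki67 and Ccnb1 were chosen as proliferation markers, and Cdkn1a as the gene whose gene-end peaks rose with TNF at both times. Capitals mark matches to E2F sites (TTTCCCGC, TTTGGCGC, TTTCGCGC or TTTGCCGC), to CHR elements (TTTGAA or TTCGAA) and to the CCAAT box (CCAAT), each written 5′ to 3′ and searched on both strands, so that the reverse complement is also capitalised. Matches may overlap, as in Mcm5 and Mcm6. A match is a description of the letters, not a measured binding site.
Mcm5, chr8:75109309-75109508, plus strand: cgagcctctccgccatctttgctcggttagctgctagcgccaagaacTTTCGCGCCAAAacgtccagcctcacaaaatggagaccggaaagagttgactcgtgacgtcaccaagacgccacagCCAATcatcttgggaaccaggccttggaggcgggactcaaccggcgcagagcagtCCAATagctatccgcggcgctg
Mcm6, chr1:128359706-128359905, minus strand: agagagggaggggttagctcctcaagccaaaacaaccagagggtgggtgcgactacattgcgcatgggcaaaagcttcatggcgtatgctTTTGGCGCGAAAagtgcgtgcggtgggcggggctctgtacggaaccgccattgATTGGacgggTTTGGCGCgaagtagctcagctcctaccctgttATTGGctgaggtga
Cdk1, chr10:69352913-69353112, minus strand: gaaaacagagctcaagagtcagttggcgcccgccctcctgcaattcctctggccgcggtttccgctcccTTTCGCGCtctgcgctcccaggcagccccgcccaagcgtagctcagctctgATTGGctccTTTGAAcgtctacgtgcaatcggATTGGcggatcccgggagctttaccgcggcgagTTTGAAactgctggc
Top2a, chr11:99024190-99024389, minus strand: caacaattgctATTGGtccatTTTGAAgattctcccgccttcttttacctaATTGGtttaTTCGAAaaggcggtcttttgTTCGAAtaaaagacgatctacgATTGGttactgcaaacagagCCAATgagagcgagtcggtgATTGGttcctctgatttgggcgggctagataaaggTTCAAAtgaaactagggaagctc
Mki67, chr7:135716380-135716579, minus strand: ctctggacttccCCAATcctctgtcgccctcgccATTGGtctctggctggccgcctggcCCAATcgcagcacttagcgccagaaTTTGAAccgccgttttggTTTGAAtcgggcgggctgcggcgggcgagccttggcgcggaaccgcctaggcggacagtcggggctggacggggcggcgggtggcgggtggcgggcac
Ccnb1, chr13:100786487-100786686, minus strand: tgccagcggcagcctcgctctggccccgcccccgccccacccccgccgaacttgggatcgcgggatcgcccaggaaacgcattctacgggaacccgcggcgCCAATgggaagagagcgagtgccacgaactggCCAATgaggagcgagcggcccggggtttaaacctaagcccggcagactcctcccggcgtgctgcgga
Cdkn1a, chr17:29090779-29090978, plus strand: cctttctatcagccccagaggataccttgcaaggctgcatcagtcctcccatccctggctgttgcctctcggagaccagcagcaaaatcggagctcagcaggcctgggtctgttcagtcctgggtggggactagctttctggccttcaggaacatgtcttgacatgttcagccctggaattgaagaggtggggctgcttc

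In the full 300 bases, an E2F match was present in 10 of the 38 promoters (26.3%), against 2.92% of 17492 protein-coding promoters in the table. A CHR match was present in 15 (39.5%, against 18.2%), a CCAAT box in 26 (68.4%, against 39.0%), and CHR with CCAAT in 15 (39.5%, against 7.43%). The GC box of the Sp and KLF factors (GGGCGG) was present in 30 (78.9%, against 46.3%). The motifs were divided between the roles. Of 11 replication promoters, 6 held an E2F match and 3 a CHR match, whereas of 15 mitotic promoters 1 held an E2F match, 12 a CHR match and 14 a CCAAT box. None of the 5 G1/S, 3 transcription factor and 4 CDK inhibitor promoters matched CHR. The sequences above show both kinds: Mcm6 has E2F matches that begin 110, 106 and 47 bases before the start and no CHR match in the window, whereas Top2a has CHR matches at 179, 140, 120 and 23 bases before it and no E2F match. Cdk1 holds E2F (131 bases before the start), CHR (71 and 15) and CCAAT (80 and 48) together. The Cdkn1a window holds none of the 3 motifs.

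**Figure D1:**
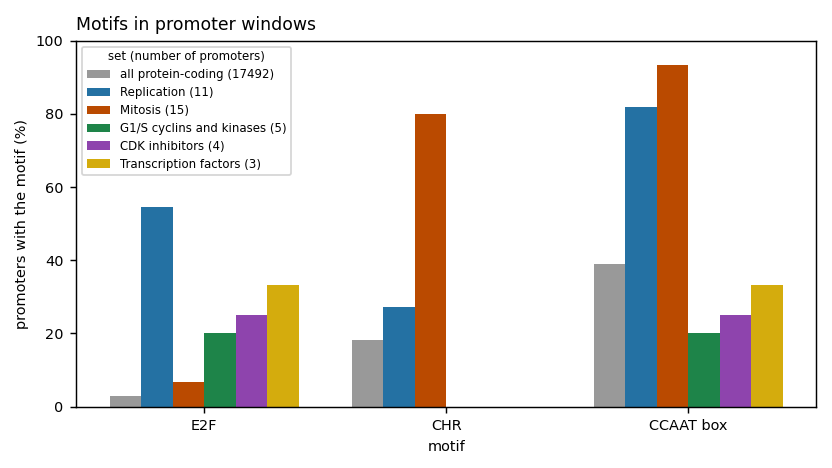
Share of promoter windows (percent, y axis) with an E2F, CHR or CCAAT match (x axis), for all protein-coding promoters in the table (grey) and for the members in each role, with the number of promoters in the key. E2F matches stand highest in replication genes (54.5%), CHR (80%) and CCAAT (93.3%) in mitotic genes.

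Accessibility at the ends of these genes was lower in astrocytes at 24 h than in NSPs and, with the deposited scaling, was back near its NSP level at 1 week. With the loess correction the median log2 change from NSPs was -0.32 at 24 h and -0.31 at 1 week, and with total reads in peaks it was -0.29 and -0.24, so the return depended on the scaling. With the deposited scaling, the median log2(normalised reads + 1) over the 54 gene-end peaks was 9.26, 9.21 and 9.26 in the NSP libraries and 8.79, 8.76 and 8.69 at 24 h. It was 8.74, 8.72 and 8.81 at 72 h, and 9.18, 9.21, 9.13 and 9.18 at 1 week. The ranges of NSPs and 24 h did not overlap, and neither did those of 72 h and 1 week. All gene-end peaks moved in the same direction by less, with 8.56 to 8.69 in NSPs, 8.22 to 8.42 at 24 h, 8.15 to 8.24 at 72 h and 8.54 to 8.60 at 1 week. Gene-end peaks of these genes were also taller, with a median mean value of 499 normalised reads against 342 over all gene-end peaks.

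**Figure D2:**
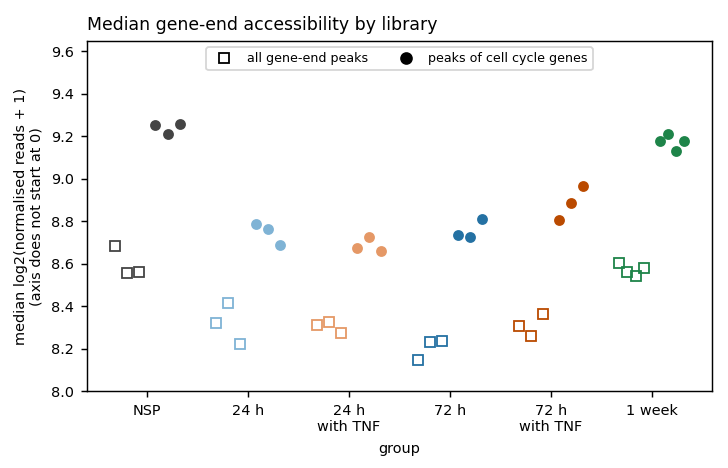
Median log2(normalised reads + 1) (y axis, which does not start at 0) over the 54 gene-end peaks of cell cycle genes (filled circles) and over all gene-end peaks (open squares), 1 pair of points for each library, by group (x axis). Both sets fell from NSPs to 24 h and rose from 72 h to 1 week, and the cell cycle peaks lay above all gene-end peaks in every library.

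A normalised read here is a read divided by the scaling factor of its library. Changes were tested peak by peak with limma on log2(normalised reads + 1), with Benjamini-Hochberg adjustment over all 88919 peaks and a call at an adjusted p under 0.05. At 24 h without TNF, 39 of the 54 gene-end peaks were called lower than in NSPs and 2 higher, with a median log2 change of -0.48. Over all gene-end peaks the share called was 39.3% lower and 6.27% higher, with a median of -0.28. At 24 h with TNF 44 were lower and 3 higher (median -0.57), against 44.9% lower and 7.14% higher of all gene-end peaks (median -0.31). At 72 h 40 were lower and 3 higher (median -0.58), against 53.7% lower and 9.62% higher (median -0.39). At 72 h with TNF 39 were lower and 6 higher (median -0.51), against 44.8% lower and 10.7% higher (median -0.28). At 1 week 18 were lower and 12 higher (median -0.17), against 27.6% lower and 26.5% higher (median 0.01). These 5 comparisons share the NSP libraries. At 24 h and 72 h, with or without TNF, fewer were called lower under total reads in peaks or the loess correction. At 24 h 27 were lower and 3 higher with total reads, and 29 and 3 with loess. At 72 h with TNF the counts were 26 and 7, and 31 and 8. At 1 week more were lower, with 24 and 27. The shares of all gene-end peaks under these scalings are not given here.

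Between the later times, 11 of the 54 gene-end peaks were called lower and 5 higher at 72 h than at 24 h (median -0.01), against 22.4% lower and 7.7% higher of all gene-end peaks (median -0.10). From 72 h to 1 week 3 were lower and 35 higher (median 0.45), against 6.11% lower and 54% higher (median 0.39). The smaller counts depended on single libraries. For 72 h against 24 h 2 were higher without 72 h replicate 3, and 3 without any 24 h replicate or 72 h replicate 2. For 1 week against 72 h 1 was lower without 1 week replicate 1 or 72 h replicate 1. The share of calls that were higher depended on the scaling. At 72 h against 24 h it was 31.2% with the deposited scaling and 50% with 10 lower and 10 higher under scaling to total reads in peaks or a loess correction. At 1 week against NSPs it was 40.0% and 25.0%, with 27 lower and 9 higher under the loess correction. At 72 h against NSPs it was 6.98% and 18.2%, with 27 lower and 6 higher under total reads. At 1 week against 72 h it was 92.1% and 81.8%, with 4 lower and 18 higher under total reads, and loess left 1 lower and 7 higher. The median log2 change of all peaks was -0.07 at 24 h, -0.06 at 72 h and 0.02 for 1 week against 72 h with the deposited scaling, and 0.11, 0.21 and -0.31 with total reads. The median change of the members at 24 h was lower than that of all gene-end peaks by a difference of -0.20 with the deposited scaling and of -0.20 with total reads.

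Of the 45 genes with a gene-end peak, 36 (80%) were lower and none higher at 24 h at the peak nearest the start. For Ccnd1, Ccne2, Ccna2, Mcm4, Foxm1, Aurkb, Kif20a and Cdkn1c, without a promoter entry, it was the peak nearest either end. Of 10324 genes with a promoter entry and a peak within 1 kb of the start, 44.6% were lower and 2.93% higher. Over all gene-end peaks 39.3% were lower and 6.27% higher. TNF-treated cells at 24 h had 39 lower and 1 higher. The shares were 51.2% and 3.56% of the 10324 genes and 44.9% and 7.14% of all gene-end peaks. At 1 week the shares were 24.8% and 26.3% of the 10324 genes and 27.6% and 26.5% of all gene-end peaks. Of the 45 genes 14 (31.1%) were lower and 8 (17.8%) higher. These 8 were Cdc45, Mcm3, Mcm7, Rrm1, Cdc20, Cenpa, Kif11 and Top2a. The Mcm3 call was lost with the loess correction (adjusted p = 0.132). The 9 genes that did not pass at 24 h were Ccne1, Cdc45, Mcm7, Cdc20, Plk1, Cenpa, Cdkn1a, Cdkn1b and Cdkn1c. Peaks shared with a neighbouring gene cannot be given to either gene. They were those of Ccna2 with Bbs7, Cdc45 with Ufd1, Mcm4 with Prkdc, Mcm7 with Ap4m1, Pcna with Cds2, Foxm1 with Rhno1, Aurka with Cstf1 and Kif20a with Brd8.

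**Figure D3:**
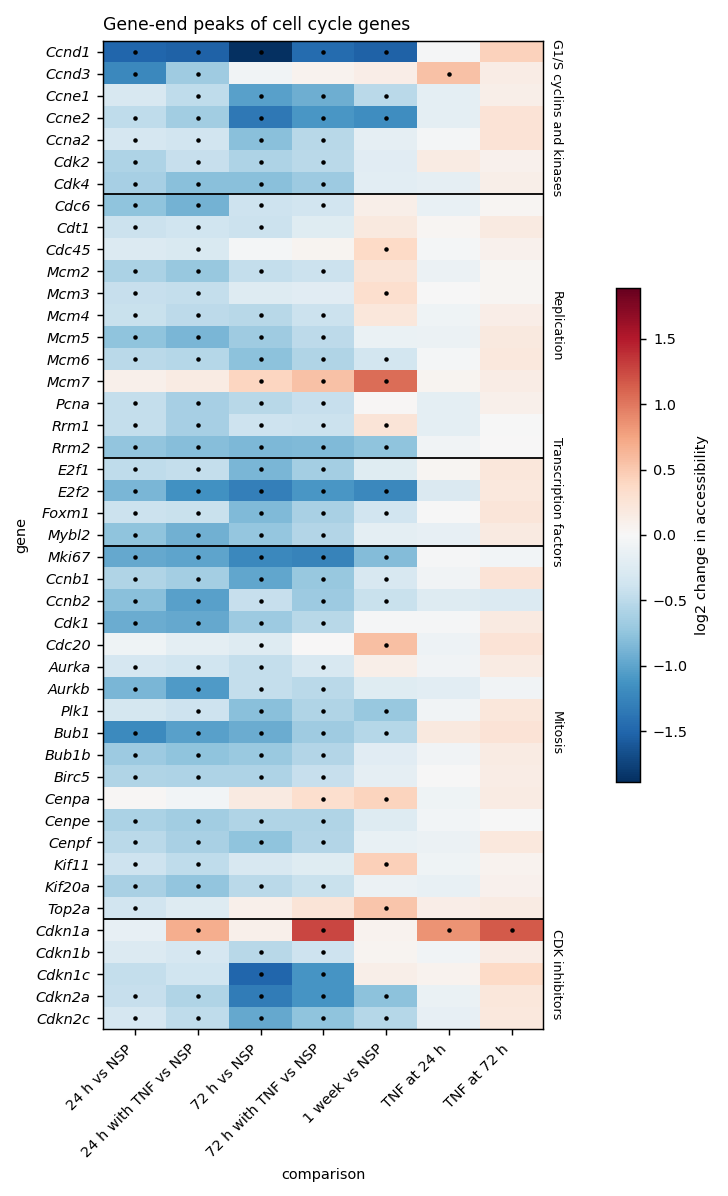
Log2 change in accessibility (colour) at the gene-end peak nearest the start of each of 45 genes (y axis, grouped by role) in 7 comparisons (x axis). A dot marks a limma adjusted p under 0.05. For genes without a promoter entry the peak nearest either end is shown. Blue fills the columns against NSPs at 24 h and 72 h, fades at 1 week for replication and mitotic genes, and the TNF columns are pale apart from Cdkn1a at both times and Ccnd3 at 24 h.

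The D-type cyclins and their partners start the G1 phase, and this group held the largest falls at a gene start. Of its 9 gene-end peaks 7 were lower at 24 h and 0 higher (median log2 change -0.58), 7 were lower at 72 h (median -0.79), and 4 at 1 week (median -0.51). Of all gene-end peaks 39.3% were lower at 24 h and 6.27% higher, 53.7% were lower at 72 h and 27.6% at 1 week. The peak at the start of Ccnd1 (cyclin D1, chr7:144939547-144940047) held 372, 446 and 504 normalised reads in the NSP libraries and 142, 168 and 151 at 24 h. It held 165, 167 and 126 at 24 h with TNF, 122, 98.1 and 134 at 72 h, 146, 170 and 161 at 72 h with TNF, and 159, 163, 172 and 116 at 1 week. Every astrocyte library was below every NSP library. The log2 change from NSPs was -1.50 at 24 h (SE 0.17, limma adjusted p = 2.68e-08) and -1.53 at 1 week (SE 0.16, adjusted p = 1.47e-09).

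A second gene-end peak of Ccnd1 lies at its other end and is shared with Lto1 (chr7:144929806-144930306). Its mean fell from 350 ± 129 normalised reads (SD, n = 3) in NSPs to 153 ± 25.0 at 24 h, 85.3 ± 9.29 at 72 h and 49.1 ± 10.8 (n = 4) at 1 week. The log2 change at 1 week was -2.76 (SE 0.22, adjusted p = 3.29e-12), the lowest of the 54 gene-end peaks in that comparison. Unlike the start peak, it went on falling from 72 h to 1 week (log2 change -0.81, SE 0.22, adjusted p = 0.00399).

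Ccnd3 (cyclin D3) fell and came back. Its start peak (chr17:47504851-47505351) held 362, 281 and 303 normalised reads in NSPs, 110, 149 and 147 at 24 h, 342, 266 and 292 at 72 h and 306, 310, 403 and 362 at 1 week. The 24 h libraries lay below all of these. The log2 change was -1.22 at 24 h (SE 0.15, adjusted p = 9.58e-08), and from 24 h to 72 h it rose by 1.15 (SE 0.15, adjusted p = 2.1e-06). Ccnd1 over the same interval changed by -0.39 (SE 0.17), which did not pass (adjusted p = 0.0918). Ccnd1 and Ccnd3 thus stood at 0.346 and 1.09 times their NSP level at 1 week, on the scale of value + 1.

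Cdk4, the kinase partner of the D cyclins, held 1234 to 1795 normalised reads in NSPs and 865 to 1049 at 24 h (log2 change -0.62, SE 0.14, adjusted p = 0.000412). It held 1206 to 1358 at 1 week, which overlapped the NSPs. Ccne1 and Ccne2 encode cyclin E, which drives entry into S phase with Cdk2, and their fall was deepest at 72 h. Ccne2 went from 705 ± 130 normalised reads (SD, n = 3) in NSPs to 504 ± 71.7 at 24 h, 273 ± 32.4 at 72 h and 310 ± 44.8 (n = 4) at 1 week, when it was still lower (log2 change -1.17, SE 0.14, adjusted p = 1.59e-08). Ccne1 went from 1417 ± 353 to 1135 ± 171, 681 ± 63.8 and 980 ± 69.6. Its change at 24 h did not pass (-0.30, SE 0.14).

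Replication genes were mostly lower at 24 h and mostly higher again at 1 week than at 72 h. Of their 14 gene-end peaks 11 were lower and 0 higher at 24 h (median log2 change -0.45), against 39.3% and 6.27% of all gene-end peaks. At 1 week 3 (21.4%) were lower and 5 (35.7%) higher (median 0.20), against 27.6% and 26.5%. From 72 h to 1 week 12 of the 14 were higher, against 54% of all gene-end peaks, and 11 of these 12 calls were lost with the loess correction. Mcm5, a subunit of the replicative helicase whose E2F matches are shown above, held 1017, 863 and 851 normalised reads in NSPs at its start (chr8:75109215-75109715). It held 568, 552 and 493 at 24 h, 516, 592 and 598 at 72 h, and 889, 822, 755 and 859 at 1 week. Every library of 24 h or 72 h was under those of NSPs and 1 week, which overlapped. The log2 change was -0.76 at 24 h (SE 0.11, adjusted p = 3.1e-06) and -0.13 at 1 week (SE 0.11, adjusted p = 0.293).

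Cdc6, which loads the Mcm helicase onto origins, held 845, 701 and 672 normalised reads in NSPs (chr11:98907472-98907972). It held 470, 426 and 413 at 24 h, 530, 543 and 618 at 72 h, and 817, 801, 794 and 772 at 1 week. The 1 week values lay inside the NSP range. Its change at 24 h was -0.75 (SE 0.11, adjusted p = 2.8e-06). At 72 h Cdc6 was higher than at 24 h by 0.37 (SE 0.11, adjusted p = 0.0165), a call lost without 24 h replicate 3 or without 72 h replicate 3 (adjusted p = 0.0556 and 0.0879).

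Rrm2, the regulated subunit of the enzyme that makes deoxyribonucleotides, was still below NSPs at 1 week. Its start peak (chr12:24708196-24708696) held 452, 763 and 601 normalised reads in NSPs, 369, 378 and 315 at 24 h, and 354, 401, 306 and 348 at 1 week. No astrocyte library reached the lowest NSP library. The log2 change was -0.74 at 24 h (SE 0.15, adjusted p = 0.000121) and -0.75 at 1 week (SE 0.14, adjusted p = 1.89e-05). Rrm1, the other subunit, went from 732 ± 71.3 in NSPs to 537 ± 70.5 at 24 h and 865 ± 39.9 at 1 week. Its rise above NSPs at 1 week (0.24, SE 0.10, adjusted p = 0.0395) did not pass under 11 of 17 alternatives.

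Mcm7 has 2 starts in the promoter table, and their peaks differed at 24 h. The peak at the inner start, shared with Ap4m1 (chr5:138170947-138171447), was not called at 24 h (log2 change 0.09, SE 0.12) and rose to 1436 ± 78.7 normalised reads (SD, n = 4) at 1 week from 702 ± 155 (n = 3) in NSPs. This was the largest rise of a named start peak at 1 week (log2 change 1.05, SE 0.11, adjusted p = 2.64e-09). The peak at the outer start (chr5:138171726-138172226), also shared with Ap4m1, held 785, 472 and 562 in NSPs and 446, 469 and 422 at 24 h. It was called lower at 24 h (-0.41, SE 0.13, adjusted p = 0.0129), a call lost without NSP replicate 1 (adjusted p = 0.138), with loess or total reads (0.124 and 0.141) and with only the groups compared (0.0982), and it was higher at 1 week (0.45, SE 0.13, adjusted p = 0.00245), which was lost without NSP replicate 2 (adjusted p = 0.0541). Mcm6, by contrast, was still lower at 1 week, at 530 ± 15.5 against 675 ± 17.7 in NSPs (-0.35, SE 0.10, adjusted p = 0.00339). Across Mcm2 to Mcm7 the 24 h change at the named start peak ran from -0.76 (Mcm5) to 0.09 (Mcm7).

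The transcription factors that drive the cycle fell together at 24 h, with 4 of 5 gene-end peaks lower and 0 higher (median log2 change -0.49). Of all gene-end peaks 39.3% were lower and 6.27% higher. E2f2, an activator of replication genes, held 259, 180 and 217 normalised reads in NSPs (chr4:136172257-136172757). It held 105, 133 and 118 at 24 h, 77.2, 99.3 and 86.7 at 72 h and 115, 103, 70.4 and 87.9 at 1 week. Every later library lay below every NSP library, and the change was -0.87 at 24 h (SE 0.20, adjusted p = 0.000817) and -1.22 at 1 week (SE 0.19, adjusted p = 1.91e-06). E2f1 held 930 to 1088 in NSPs, 696 to 753 at 24 h (-0.49, SE 0.11, adjusted p = 0.000639), 507 to 653 at 72 h and 791 to 957 at 1 week. The 1 week change of E2f1 was not called (-0.23, SE 0.10, adjusted p = 0.0541).

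Mybl2 encodes B-Myb, which works with the MuvB core at mitotic promoters. It held 695, 823 and 818 normalised reads in NSPs, 487, 441 and 447 at 24 h, 461, 451 and 498 at 72 h and 752, 745, 640 and 613 at 1 week (chr2:163054300-163054800). The change was -0.76 at 24 h (SE 0.11, adjusted p = 1.79e-06). Foxm1, its later-acting partner, went from 544 ± 18.4 in NSPs to 411 ± 40.3 at 24 h and 304 ± 30.6 at 72 h. It was at 426 ± 51.1 at 1 week, when it was lower than in NSPs (-0.36, SE 0.12, adjusted p = 0.00734).

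Mitotic genes made up the largest group. Of 19 gene-end peaks 14 were lower at 24 h and 2 higher (median log2 change -0.57), against 39.3% and 6.27% of all gene-end peaks. At 1 week 5 were lower and 6 higher (median -0.14), which as shares (26.3% and 31.6%) were near those of all gene-end peaks (27.6% and 26.5%). Mki67 encodes the Ki-67 protein of dividing cells, which the study measured as mRNA. Its start peak (chr7:135716303-135716803) held 784, 625 and 704 normalised reads in NSPs and 377, 369 and 328 at 24 h. It held 349, 365 and 336 at 24 h with TNF, 309, 331 and 269 at 72 h, 260, 302 and 318 at 72 h with TNF, and 400, 388, 363 and 432 at 1 week. No astrocyte library reached the NSP range. The change was -0.97 at 24 h (SE 0.12, adjusted p = 1.82e-07), -1.21 at 72 h (SE 0.12, adjusted p = 1.64e-09) and -0.83 at 1 week (SE 0.12, adjusted p = 3.19e-07).

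Ccnb1 encodes cyclin B1, which drives mitosis with Cdk1. It held 839, 851 and 806 normalised reads in NSPs, 594, 555 and 527 at 24 h and 497, 599 and 508 at 24 h with TNF (chr13:100786352-100786852). It held 447, 396 and 423 at 72 h, 518, 466 and 538 at 72 h with TNF, and 672, 689, 667 and 662 at 1 week. Its lowest point was thus at 72 h without TNF, where the change from NSPs was -0.98 (SE 0.11, adjusted p = 5.28e-09). The TNF libraries at 72 h lay above the untreated ones by 0.26 (SE 0.11), which did not pass (adjusted p = 0.107). At 1 week it had risen from 72 h by 0.67 (SE 0.10, adjusted p = 7.22e-06) and was below NSPs by a change of -0.31 (SE 0.10, adjusted p = 0.00758).

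Cdk1 returned to its NSP range. It held 814, 713 and 752 normalised reads in NSPs, 373, 397 and 411 at 24 h, 465, 492 and 461 at 72 h and 730, 733, 768 and 769 at 1 week (chr10:69352737-69353237). The change was -0.94 at 24 h (SE 0.10, adjusted p = 1.31e-08) and -0.02 at 1 week (SE 0.10, adjusted p = 0.886). A small peak past the other end of the gene moved the opposite way, from 22.6 ± 6.42 in NSPs to 49.5 ± 7.84 at 24 h (1.12, SE 0.28, adjusted p = 0.00177). Bub1, a kinase of the spindle checkpoint, fell most among the mitotic start peaks at 24 h, from 363, 221 and 252 to 102, 136 and 116 (-1.21, SE 0.20, adjusted p = 1.28e-05). Its change at 1 week (-0.53, SE 0.19, adjusted p = 0.014) was lost without NSP replicate 1 (adjusted p = 0.112).

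The other mitotic genes ranged widely. Top2a, the topoisomerase that untangles chromosomes, whose start carries 4 CHR matches, fell at 24 h (-0.37, SE 0.15, adjusted p = 0.0448) in a call that 10 of 16 alternatives lost. It was higher than in NSPs at 1 week (0.52, SE 0.14, adjusted p = 0.00163). Cdc20, an activator of the anaphase-promoting complex, was not called at 24 h and rose to 1531 ± 96.2 at 1 week from 1037 ± 74.9 in NSPs (0.56, SE 0.10, adjusted p = 8.06e-06). Kif11, a spindle motor, rose to 1045 ± 45.8 at 1 week from 781 ± 216 (0.45, SE 0.12, adjusted p = 0.00204). Plk1, a mitotic kinase, was lower at 1 week than its 539 ± 117 in NSPs (-0.72, SE 0.15, adjusted p = 0.000149). Ccnb2 was also lower at 1 week (-0.42, SE 0.16, adjusted p = 0.018), and this call was lost without NSP replicate 2 or without NSP replicate 3 (adjusted p = 0.0631 and 0.0672).

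Aurkb encodes the kinase of the chromosomal passenger complex, and its ends went opposite ways. The start peak (chr11:69045368-69045868) held 273, 354 and 350 normalised reads in NSPs, 151, 180 and 203 at 24 h and 272, 274, 299 and 264 at 1 week. The change was -0.87 at 24 h (SE 0.15, adjusted p = 2.45e-05). A peak centred 266 bases past the other end (chr11:69051680-69052180) had no end of another protein-coding gene within 1 kb. This peak held 2.92, 2.83 and 2.66 in NSPs, which were 5, 6 and 4 reads. It held 130, 100 and 116 at 24 h, 118, 94.8 and 70.6 at 24 h with TNF, 189, 200 and 153 at 72 h, 277, 310 and 286 at 72 h with TNF, and 414, 416, 427 and 366 at 1 week. Its untreated group means rose with time, with a log2 change of 4.93 at 24 h (SE 0.19, adjusted p = 2.93e-18) and 6.74 at 1 week (SE 0.18, adjusted p = 4.33e-23), the largest of any gene-end peak in the set.

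**Figure D4:**
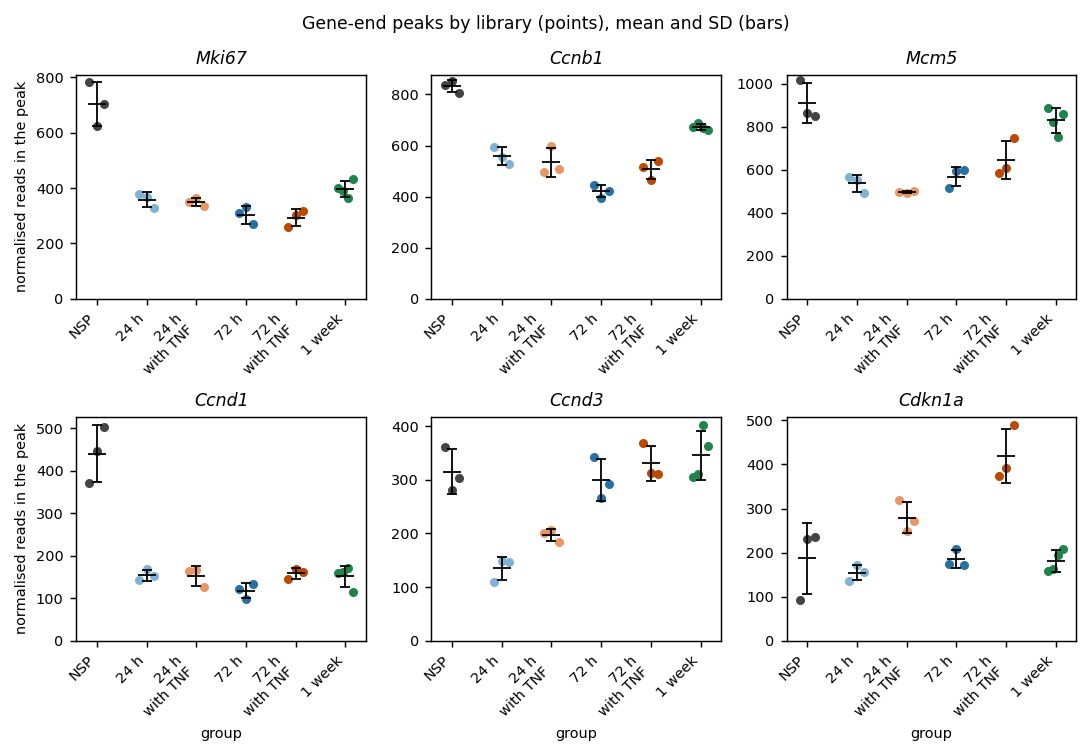
Normalised reads (y axis, from 0) in the start peaks of Mki67, Ccnb1, Mcm5, Ccnd1, Ccnd3 and Cdkn1a, 1 point per library, with the group mean and SD (bars), by group (x axis). Mki67 and Ccnd1 stayed below all NSP libraries, Mcm5 and Ccnd3 returned to the NSP range by 1 week, and Cdkn1a was highest with TNF (mean 418 at 72 h with TNF).

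CDK inhibitors restrain the cycle. Of their 7 gene-end peaks 3 were lower at 24 h and 0 higher (median log2 change -0.39), a share of 42.9% that was near the 39.3% of all gene-end peaks. At 72 h 5 were lower (median -0.97), against 53.7%, and at 1 week 4 (median -0.48), against 27.6%. Cdkn2a, which encodes p16 and p19Arf, held 1118, 997 and 1088 normalised reads in NSPs, 824, 848 and 696 at 24 h, 380, 407 and 502 at 72 h and 660, 631, 610 and 605 at 1 week (chr4:89294454-89294954). Its lowest libraries were those of 72 h, with a change of -1.32 (SE 0.12, adjusted p = 1.27e-10). Cdkn2c, which encodes p18, ran in parallel with 783 to 1051 in NSPs, 655 to 783 at 24 h, 427 to 493 at 72 h and 587 to 660 at 1 week. Its call at 24 h (-0.32, SE 0.12, adjusted p = 0.0233) was lost without 24 h replicate 3 (adjusted p = 0.11), without NSP replicate 1 (0.128), with loess (0.303), with total reads (0.302) and with only the groups compared (0.112).

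Cdkn1c (p57) was lowest at 72 h, going from 196 ± 44.2 normalised reads in NSPs to 71.7 ± 28.0 at 72 h and 208 ± 23.3 at 1 week. The change from NSPs was -1.49 at 72 h (SE 0.22, adjusted p = 1.3e-06), and from 72 h to 1 week it rose by 1.60 (SE 0.21, adjusted p = 1.39e-06). Cdkn1b (p27), which accumulates in resting cells, held 1041 to 1343 in NSPs, 849 to 1068 at 24 h, 685 to 867 at 72 h and 1113 to 1272 at 1 week. It was not called at 24 h (-0.26, SE 0.12, adjusted p = 0.0814) or 1 week (0.04, SE 0.11), and it was lower at 72 h (-0.53, SE 0.12, adjusted p = 0.000485), a call lost with the loess correction (adjusted p = 0.129).

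TNF changed few of these gene ends. The summed astrocyte markers given above were lower with TNF at both times without overlap, and their part in the TNF results was not tested. At 24 h 0 of the 54 were called lower and 3 higher, against 0.854% lower and 1.97% higher of all gene-end peaks. By edgeR and by DESeq2 on the recovered reads the counts were also 0 and 3, and 1 peak was lower at an unadjusted p under 0.05 by each of the 3 tools. At 72 h 1 was lower and 3 higher, against 1.45% lower and 3.29% higher. The medians over the 54 peaks were -0.07 at 24 h and 0.15 at 72 h, beside -0.04 and 0.12 over all gene-end peaks. Mki67 changed by -0.03 with TNF at 24 h (SE 0.12) and -0.05 at 72 h (SE 0.12). The difference between the TNF effects at 72 h and 24 h was called at 0 of the 132 peaks by limma, edgeR and DESeq2, with 2 lower at an unadjusted p under 0.05 by each tool and 8, 8 and 10 higher. Over all 88919 peaks limma called 1.

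Cdkn1a (p21), which inhibits cyclin-dependent kinases in response to stress, was the gene whose gene-end peaks rose with TNF at both times. Its start peak (chr17:29090668-29091168) held 92.9, 231 and 237 normalised reads in NSPs, 137, 171 and 156 at 24 h, and 318, 249 and 271 at 24 h with TNF. It held 175, 209 and 172 at 72 h, 375, 392 and 488 at 72 h with TNF, and 159, 164, 194 and 209 at 1 week. Each TNF library exceeded every library without TNF. The log2 change with TNF was 0.85 at 24 h (SE 0.22, adjusted p = 0.0117) and 1.16 at 72 h (SE 0.22, adjusted p = 0.000635). Their difference was 0.32 (SE 0.31, adjusted p = 0.852). A second peak 704 bases inside the gene rose too, by 0.75 at 24 h (SE 0.19, adjusted p = 0.00968) and 0.92 at 72 h (SE 0.19, adjusted p = 0.00158). Cdkn1a has 2 starts in the promoter table. A peak centred 58 bases before the inner start (chr17:29093461-29093961), not a gene-end peak, was not called with TNF at either time. NSP replicate 1 was low at the start peak, and without it the 1 week change from NSPs was -0.38 in place of 0.07.

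Ccnd3 also rose with TNF at 24 h at its start, to 201, 206 and 184 normalised reads from 110, 149 and 147 (log2 change 0.55, SE 0.15, adjusted p = 0.0152). At 72 h it was not called (0.14, SE 0.15). These 3 calls at 24 h rested on few libraries. Without 24 h replicate 1 none was called (adjusted p = 0.0694 and 0.0701 for the Cdkn1a peaks and 0.131 for Ccnd3). Without 24 h with TNF replicate 1 the Cdkn1a start peak and Ccnd3 were lost (adjusted p = 0.0696 and 0.0537). Ccnd3 was also lost without 24 h with TNF replicate 2 (adjusted p = 0.0625).

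At 72 h the peak past the end of Aurkb rose with TNF (0.69, SE 0.19, adjusted p = 0.0139). A minor peak of Cdk2, centred 726 bases before its start (chr10:128705527-128706027), fell from 84.9, 57.4 and 75.2 normalised reads to 35.8, 41.4 and 28.8 (-1.01, SE 0.27, adjusted p = 0.0129). The Aurkb call was lost without 72 h replicate 3 or without 72 h with TNF replicate 2 (adjusted p = 0.089 and 0.0627). The Cdk2 call was lost without 72 h replicate 1 or without 72 h with TNF replicate 3 (adjusted p = 0.0767 and 0.074). The start peak of Cdk2 was not called with TNF (0.08, SE 0.17).

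Away from gene ends the picture was mixed, and large rises stood beside large falls. Of the 78 other peaks 28 were lower and 10 higher at 24 h than in NSPs, against 21.4% lower and 26.2% higher of all other peaks near genes. At 1 week 26 were lower and 22 higher, against 34.9% lower and 34.6% higher. With TNF at 24 h 2 were lower and 4 higher, against 3.82% lower and 7.88% higher. With TNF at 72 h 4 were lower and 3 higher, against 6.26% lower and 6.58% higher. By role, 14 of 33 other peaks of the G1/S genes were lower at 24 h and 2 higher, and 3 of 14 of the mitotic genes were lower and 4 higher. Leaving out 1 library gave 20 (without 24 h replicate 1) to 29 (without NSP replicate 1) lower at 24 h and 9 to 11 higher. The small TNF counts moved with single libraries. At 24 h none was lower without 24 h replicate 1 or without 24 h with TNF replicates 1 or 3, and 2 were higher without 24 h replicate 1 or 24 h with TNF replicate 3. At 72 h 2 were lower without 72 h replicates 1 or 3 or 72 h with TNF replicates 1 or 2.

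Ccnd3 held 12 peaks and showed both directions inside 1 gene. A peak 13365 bases into the gene (chr17:47518166-47518666) held 24.0, 19.8 and 14.6 normalised reads in NSPs, 102, 100 and 110 at 24 h, and 183, 219 and 141 at 24 h with TNF. It held 194, 199 and 175 at 72 h, 416, 507 and 407 at 72 h with TNF, and 629, 571, 638 and 517 at 1 week. The groups rose in steps, with a change of 2.39 at 24 h (SE 0.17, adjusted p = 2.83e-12) and 4.87 at 1 week (SE 0.16, adjusted p = 8.69e-21). TNF raised it at both times, by 0.77 at 24 h (SE 0.17, adjusted p = 0.00318) and 1.22 at 72 h (SE 0.17, adjusted p = 1.58e-05). Another peak, 41020 bases in (chr17:47545821-47546321), fell from 488 ± 41.9 (SD, n = 3) in NSPs to 165 ± 12.6 at 24 h and 130 ± 11.4 (n = 4) at 1 week (1 week change -1.90, SE 0.13, adjusted p = 1.47e-13).

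A further Ccnd3 peak (chr17:47589788-47590288) rose with time and fell with TNF. Its means were 10.7 ± 3.24 normalised reads in NSPs, 35.1 ± 8.36 at 24 h, 71.1 ± 7.12 at 72 h and 115 ± 16.8 at 1 week (1 week change 3.33, SE 0.29, adjusted p = 3.2e-11). With TNF it was 17.7 ± 5.33 at 24 h and 27.2 ± 7.93 at 72 h. The TNF change was -1.39 at 72 h (SE 0.31, adjusted p = 0.00297) and -0.96 at 24 h (SE 0.31, adjusted p = 0.0424), and 7 of 16 alternatives lost the call at 24 h. A peak inside E2f1 (chr2:154564022-154564522) also rose with time and was lower with TNF at 72 h. It rose from 32.5 ± 11.1 in NSPs to 141 ± 13.5 at 24 h, 170 ± 19.9 at 72 h and 286 ± 19.7 at 1 week (3.15, SE 0.18, adjusted p = 3.11e-15), and it was at 96.6 ± 15.1 at 72 h with TNF (-0.81, SE 0.19, adjusted p = 0.00523).

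**Figure D5:**
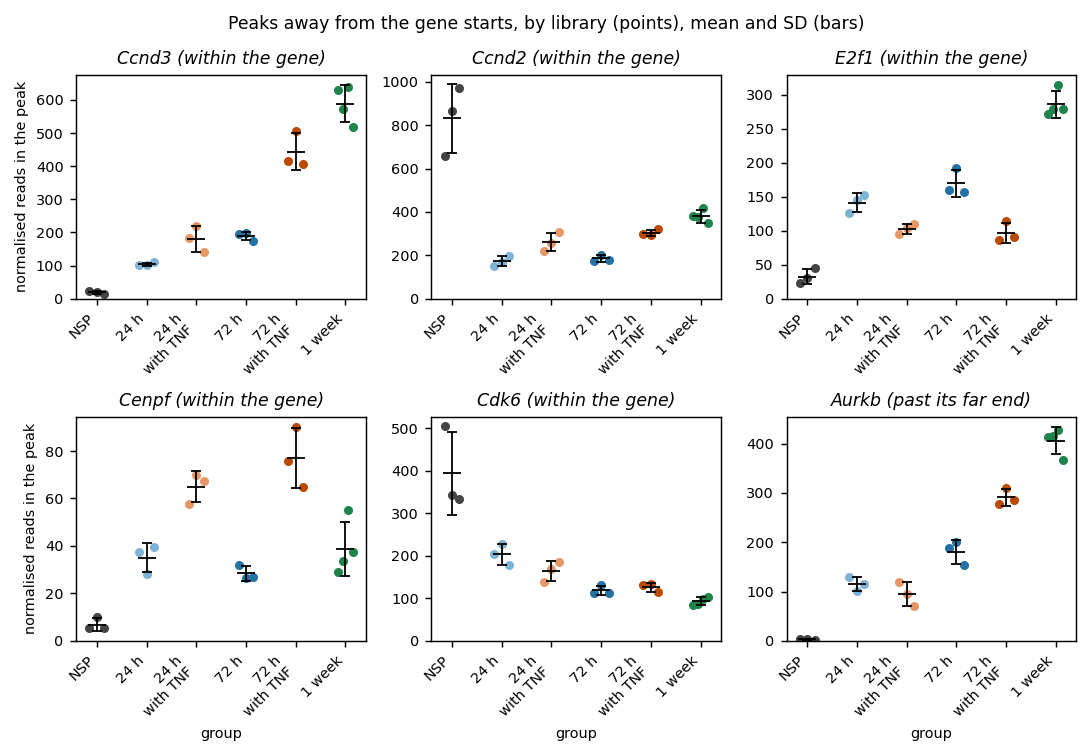
Normalised reads (y axis, from 0) in 6 peaks away from the gene starts, 1 point per library, with the group mean and SD (bars), by group (x axis). The Ccnd3, E2f1 and Aurkb peaks rose from NSPs to 1 week (Ccnd3 mean 19.4 to 589), the Ccnd2 and Cdk6 peaks lay below every NSP library at all later times, and the Cenpf peak was highest with TNF (mean 77.0 at 72 h with TNF).

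Ccnd2 (cyclin D2), which had no gene-end peak, had 7 others, of which 4 were lower at 24 h and 0 higher. Of all other peaks near genes 21.4% were lower and 26.2% higher. The peak with the deepest fall (chr6:127133896-127134396, inside the gene) held 659, 863 and 973 normalised reads in NSPs, 151, 168 and 198 at 24 h and 379, 376, 420 and 347 at 1 week. The change was -2.25 at 24 h (SE 0.15, adjusted p = 2.87e-13) and -1.11 at 1 week (SE 0.14, adjusted p = 3.63e-08). It was higher with TNF, at 220, 256 and 306 at 24 h (0.59, SE 0.15, adjusted p = 0.00772) and 299, 296 and 320 against 174, 203 and 180 at 72 h (0.72, SE 0.15, adjusted p = 0.00131). The 24 h call was lost without 24 h replicate 1 or without 24 h with TNF replicate 3 (adjusted p = 0.0621 and 0.0803).

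Cdk6, which partners D cyclins like Cdk4, lost accessibility through its body. Of its 8 peaks 3 were lower at 24 h and 7 at 1 week, with 0 higher. Of all other peaks near genes 21.4% were lower and 26.2% higher at 24 h, and 34.9% and 34.6% at 1 week. The peak with the smallest p at 1 week (chr5:3404942-3405442) held 506, 342 and 334 normalised reads in NSPs, 204, 229 and 177 at 24 h, and 83.8, 86.5, 99.0 and 104 at 1 week (1 week change -2.04, SE 0.16, adjusted p = 3.55e-12). A peak outside Ccnd1, 1825 bases from its start side (chr7:144941406-144941906), fell with the start peak from 575, 887 and 910 to 252, 277 and 236 at 24 h (-1.60, SE 0.17, adjusted p = 6.99e-09) and was still lower at 1 week (-1.34, SE 0.16, adjusted p = 1.64e-08). Its rise from 72 h to 1 week (0.43, SE 0.16, adjusted p = 0.0322) was lost under 7 alternatives, among them leaving out 1 week replicate 1 or 72 h replicate 1 (adjusted p = 0.129 and 0.334).

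Cenpf, a kinetochore protein, had 2 inner peaks that TNF moved in opposite directions. That at chr1:189664714-189665214 held 5.26, 9.89 and 5.32 normalised reads in NSPs and rose to 37.6, 28.0 and 39.4 at 24 h (2.24, SE 0.31, adjusted p = 8.29e-07). It held 32.2, 26.3 and 26.8 at 72 h and 76.0, 90.2 and 64.8 at 72 h with TNF (1.40, SE 0.31, adjusted p = 0.00284). That at chr1:189645139-189645639 held 572, 628 and 795 in NSPs and 233, 199, 257 and 225 at 1 week (-1.53, SE 0.13, adjusted p = 2.49e-11). It was lower with TNF by a change of -0.44 at 24 h (SE 0.14, adjusted p = 0.0423) and -0.43 at 72 h (SE 0.14, adjusted p = 0.0452). Leaving out any library of the 24 h pair ended the first of these calls, and 6 of 16 alternatives ended the second. A peak inside E2f2 (chr4:136185291-136185791) rose with TNF at 24 h, from 59.2, 45.7 and 57.9 to 98.2, 113 and 101 (0.93, SE 0.22, adjusted p = 0.00468).

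Another 97 genes of the same pathway, listed for their function (among them the other E2F factors, the origin recognition complex, DNA polymerases and condensins), were also mostly lower at 24 h. Of the 91 with a gene-end peak 64 (70.3%) were lower and 0 higher at 24 h (median log2 change -0.42), against 39.3% and 6.27% of all gene-end peaks. At 1 week 26 (28.6%) were lower and 18 (19.8%) higher (median -0.02), against 27.6% and 26.5%. From 72 h to 1 week 71 (78.0%) were higher and 0 lower, against 54% and 6.11%. With TNF 1 (1.10%) was higher at 24 h and 3 (3.30%) at 72 h, near the 1.97% and 3.29% of all gene-end peaks. At either time 0 were lower, against 0.854% at 24 h and 1.45% at 72 h. The peaks of the 91 were those nearest the start where a promoter entry existed. Of the 10324 genes with such a peak 44.6% were lower and 2.93% higher at 24 h, and 24.8% and 26.3% at 1 week. From 72 h to 1 week 65.4% of the 10324 were higher and 3.42% lower. With TNF 0.998% were higher at 24 h and 2.56% at 72 h, and 0.300% and 0.571% lower.

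Set beside the motifs, all 10 members with an E2F match in the window were lower at 24 h at the peak nearest the start whose window was searched (median log2 change -0.54), against 58.4% of 449 genes with the same letters (median -0.37) and 44.6% of 10324 genes with a promoter entry and such a peak (median -0.30). For Mcm7, which belongs to this class and the next, that was the peak at its outer start and not the named one, and for Cdk6 it was a peak by a start inside the gene's listed ends. Of the 10 E2F calls, those of Mcm3, Cdt1 and Mcm7 were lost with loess (limma adjusted p = 0.0719, 0.0991 and 0.124). Those of Mcm7, Cdk2 and Cdkn2a were lost with total reads (limma adjusted p = 0.141, 0.0554 and 0.0546). Of the 15 members with CHR and CCAAT 11 were lower (median -0.41), against 49.5% of 588 genes. Among these 11, Mcm7, Aurka, Kif11 and Top2a lost the call with loess and with total reads. The shares of all genes under these scalings are not given here. Of the 9 members with none of the 3 motifs 6 were lower (median -0.49), against 43.1% of 5306 genes. No test of a difference between these motif classes was run. At 1 week the medians were -0.07 for members with E2F, 0.12 for those with CHR and CCAAT and -0.20 for those with none. Over all genes of these classes they were 0.02, 0.10 and -0.02.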

How the data were processed

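ATAC-seq was measured in 19 libraries. Per the labels and the methods, the authors used FastQC, Trim Galore, Bowtie2 (mm10), SAMtools and MACS2 and removed blacklisted regions. Tool versions, duplicate handling, any transposase offset and how values were normalised are not given in the sources used here. The deposited values are a normalised signal. In each library every value is a whole multiple (tolerance 0.001 reads, 100% of values) of a constant, taken as the value of 1 read, from which reads were recovered. P-values do not account for PCR duplicates.

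Peaks with few reads were removed with filterByExpr (minimum count 10). log2(value + 1) was fitted over all 19 libraries with group means by limma 3.58.1 (trend) in R 4.3.3, two-sided, with Benjamini-Hochberg adjustment. Fold changes on this scale understate changes of low peaks. Alternatives were edgeR 4.0.16 (quasi-likelihood) or DESeq2 1.42.0, both run on recovered reads, other scalings, a pseudocount of 5, no filter, only the groups compared, replicate blocks, gene ends within 500 bases, starts only, and leaving out each library. They were extended to peaks away from gene ends after the data had been seen. The fit was tested on simulated data.

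The members, roles, motifs and marker lists were chosen with earlier results of these data known. Values per library were given for Mki67, Ccnb1, the 3 genes per role with the smallest adjusted p at 24 h at the gene-end peak nearest the start, and every gene called for TNF, and for the 3 other peaks per direction with the smallest p in 4 comparisons. Further genes were chosen after their values were seen. Coordinates are those of the authors' table (mm10).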

Additional observations from a re-analysis of the deposited data

Results flagged for a closer look

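At the gene-end peak of Cenpf, 1 week replicate 3 held 2225 normalised reads, above 1814 to 1853 in the other 1 week libraries. Its gap to the nearest of them was 0.906 of the group's range, past Dixon's critical value for 4 values. Of the 55 named peaks examined in this group it was the only one past the limit, and chance alone passes about 1 group in 20. The library was the shallowest of the 19. No change of Cenpf at 1 week against NSPs was called (-0.14, SE 0.10).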

How the results depend on the processing

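The fall of the cell cycle gene ends at 24 h and 72 h kept its direction under every alternative run, and its size depended on the scaling. The median log2 change at 24 h was -0.43 with TMM, -0.32 with the loess correction and -0.29 with total reads in peaks. With TNF at 24 h it was -0.35 with loess, -0.37 with total reads and -0.51 with starts only. At 72 h it was -0.50 with TMM, -0.50 with edgeR, -0.37 with loess and -0.31 with total reads, and with TNF -0.46, -0.31 and -0.32 with TMM, loess and total reads. At 1 week it was -0.31 with loess and -0.24 with total reads. For TNF at 72 h it was 0.07 and 0.08, and for 72 h against 24 h 0.05 and 0.07, with loess and total reads. For 1 week against 72 h it was 0.35, 0.37, 0.06 and 0.11 with TMM, edgeR, loess and total reads. The spread of library medians within groups was 0.0476 (SD).

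Counts moved as follows. With loess, 29 gene ends were lower at 24 h with TNF, 6 higher at 72 h, 10 higher for 72 h against 24 h, and 1 lower and 7 higher for 1 week against 72 h. With total reads, 5 were higher at 24 h with TNF, 6 at 72 h, 10 for 72 h against 24 h and 18 for 1 week against 72 h. With TMM and edgeR 8 were higher for 72 h against 24 h. Within 500 bases of an end fewer peaks enter, and 1 was higher at 24 h, 1 at 72 h and 3 at 72 h with TNF, and 0 were lower with TNF at 72 h. With starts only, 1 was higher at 24 h, 7 were lower and 3 higher for 72 h against 24 h, and 0 lower for 1 week against 72 h. Away from gene ends, 4 were lower with TNF at 24 h by DESeq2, and fitting only the groups compared gave 8 higher at 24 h and 6 at 72 h. Where no construction above shows it, the cause was not tested.

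Leaving out 1 library gave 30 to 40 gene ends lower at 24 h, 0 to 3 higher with TNF at 24 h, 0 to 1 lower with TNF at 72 h, 2 to 5 higher for 72 h against 24 h and 1 to 3 lower for 1 week against 72 h. Away from gene ends it gave 0 to 1 lower and 2 to 5 higher with TNF at 24 h and 2 to 4 lower at 72 h. Medians ran from -0.53 to -0.41 at 24 h, -0.68 to -0.53 at 72 h, -0.54 to -0.45 at 72 h with TNF, -0.18 to -0.11 at 1 week, -0.12 to -0.05 for TNF at 24 h, 0.11 to 0.20 for TNF at 72 h, -0.14 to 0.05 for 72 h against 24 h and 0.42 to 0.50 for 1 week against 72 h. The lone direction change of a single gene here was Cdkn1a at 1 week against NSPs, which ran from -0.3754 (without NSP replicate 1, adjusted p = 0.0234) to 0.2943 (without NSP replicate 3).

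With loess, 7 rises from 72 h to 1 week reversed, to -0.0187 for Ccne1, -0.0700 for Ccna2, -0.0023 for Mcm3, -0.1780 for Cenpa, -0.0486 for Cenpf, -0.0048 for Kif20a and -0.0091 for Cdkn2c. Cenpa was -0.0903 with total reads. Cdc20 at 72 h against NSPs was 0.1439 with loess and 0.0192 with total reads. Replicate numbers did not pair the libraries (correlations of same-numbered deviations -0.0416 to 0.106). With a replicate block 39 gene ends were lower at 24 h by either numbering, and away from gene ends 1 was lower with TNF at 24 h by either. Depth limits the small peaks most: the peak past the end of Aurkb rests on 4 to 6 reads per library in NSPs.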

Other observations

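Cdkn2a has 2 starts in the promoter table. Besides the peak reported above, a small peak 525 bases inside the second of them (chr4:89281417-89281917, chosen after its values were seen) moved the opposite way. It held 8.76, 5.65 and 5.32 normalised reads in NSPs, 37.6, 22.1 and 35.7 at 24 h, 39.9, 71.8 and 37.0 at 72 h and 69.7, 71.7, 63.8 and 71.8 at 1 week. The log2 change was 2.11 at 24 h (SE 0.31, limma adjusted p = 2.15e-06) and 3.24 at 1 week (SE 0.29, adjusted p = 6.15e-11), with 1 week above NSPs in 4 of 4 libraries. A taller peak, centred 94 bases before the same start (chr4:89282036-89282536), did not share this rise. Before scaling it held 339, 287 and 220 reads in the deeper NSP libraries and 137, 155, 71 and 109 at 1 week. In the same order, 1 read stood for 0.584, 0.471 and 0.664 normalised reads in NSPs and 0.882, 0.779, 2.20 and 1.07 at 1 week. The unscaled reads thus overstate any fall. The rise of the small peak therefore does not describe the second start as a whole.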
